A study of Homo sapiens with 12 samples.

Results

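The 41 genes described here encode enzymes that carry glucose to lactate, store and release it as glycogen, pass it through the pentose phosphate pathway (4 enzymes of its non-oxidative branch and PGLS of its oxidative branch), and admit pyruvate to the mitochondrial pyruvate dehydrogenase complex or keep it out. They were taken from a list of gene symbols, isozyme by isozyme, and all 41 were found among the 17818 genes of the deposited table. The RNA came from HCT116 cells overexpressing USP51 (labelled USP51-OE), HCT116 cells with a vector (labelled NC), SW480 cells overexpressing USP51 and SW480 cells with a vector. HCT116 and SW480 are established human colorectal cancer cell lines grown in serum-containing DMEM with no other treatment, and USP51 is a deubiquitinase, an enzyme that removes ubiquitin from proteins. Each group had 3 libraries, and the labels do not say whether these were separate cultures or whether the overexpressing cells were a clone or a pool.

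The table also holds columns of single libraries, but their codes cannot be tied to the labels, so the authors' group means are used throughout. Every value below is therefore 1 mean per group, with no n, standard deviation or p-value, and no difference has been compared with the spread between replicates. In RNA from whole cultures a different share of cells and a different amount of RNA per cell cannot be told apart. The columns of means carry the letters C and E, read here as vector control and USP51 overexpression, and every direction rests on that reading. The reading was checked first on USP51 itself (chromosome X, 55484616 to 55489848). USP51 was at 40.8 TPM (transcript abundance per length, scaled to the same total in each library) in HCT116 with USP51 and listed at 0 in HCT116 NC, or 580.4-fold higher per total count if the NC mean is set to 3 counts, with a lower exact 95% limit of 471.4-fold for the counts as they stand. In SW480 USP51 was at 25.7 TPM with USP51 and 0.513 TPM in NC. The means held 15506686 to 15920306 estimated counts. Colorectal epithelial markers summed to 6185 to 11474 TPM in the 4 groups, although LGALS4 was below 1 TPM in all of them and VIL1 near 0 in HCT116, while fibroblast and endothelial markers each summed to less than 1 TPM. Leukocyte markers summed to 5.96 to 7.47 TPM, of which most was CD68, and PTPRC, which defines leukocytes, was at or near 0.

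Glycolysis splits glucose into pyruvate in the cytosol, and lactate dehydrogenase turns pyruvate into lactate and back. Many steps are served by several isozymes that differ in regulation and in the tissues that use them. Tumour cells often run glycolysis in the presence of oxygen, and the hypoxia-inducible factor HIF1 is known to switch on many of these genes, often 1 isozyme of a step more than another. Pyruvate dehydrogenase kinases switch off the complex that feeds pyruvate to the citric acid cycle, and the PFKFB enzymes make or remove fructose 2,6-bisphosphate, the signal that drives phosphofructokinase.

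Because the isozymes of a step often stood apart in HCT116, the promoters of the 3 genes with the largest log2 ratios there are printed. Each is followed by the promoter of the isozyme in its family with the smallest ratio. That ratio need not be small, and ALDOA was itself at least 1.2-fold higher with USP51 on TPM, with a log2 ratio of 0.28. Each window runs from 250 bases before to 50 bases after a start site, 5′ to 3′ on the gene's strand, from RefSeq (GRCh38.p14). Capitals mark ACGTG and GCGTG, the core of the hypoxia response element bound by HIF1, on either strand, so that CACGT and CACGC are marked too. Matches on opposite strands may overlap, as in CACGTG, which counts as 2. The windows are chr12:6914330-6914629 for ENO2 (plus strand), chr1:8878637-8878936 for ENO1 (minus strand), chr17:28576846-28577145 for ALDOC (minus strand), chr16:30065510-30065809 for ALDOA (plus strand), chr3:48556754-48557053 for PFKFB4 (minus strand) and chr10:6144671-6144970 for PFKFB3 (plus strand). ALDOA had 3 windows and PFKFB3 had 2, and the one nearest the start of the most abundant transcript is shown.
ENO2: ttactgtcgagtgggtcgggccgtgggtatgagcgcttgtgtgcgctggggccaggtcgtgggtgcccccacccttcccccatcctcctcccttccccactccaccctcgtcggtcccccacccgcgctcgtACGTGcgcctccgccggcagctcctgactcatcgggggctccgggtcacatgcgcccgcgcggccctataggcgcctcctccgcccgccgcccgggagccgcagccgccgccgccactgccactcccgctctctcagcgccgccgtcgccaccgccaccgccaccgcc
ENO1: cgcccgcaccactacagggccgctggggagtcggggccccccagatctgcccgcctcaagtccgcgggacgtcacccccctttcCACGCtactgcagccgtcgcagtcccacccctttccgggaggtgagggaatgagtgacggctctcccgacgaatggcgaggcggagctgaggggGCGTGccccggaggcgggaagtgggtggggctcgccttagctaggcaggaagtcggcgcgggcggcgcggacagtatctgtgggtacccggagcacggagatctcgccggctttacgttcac
ALDOC: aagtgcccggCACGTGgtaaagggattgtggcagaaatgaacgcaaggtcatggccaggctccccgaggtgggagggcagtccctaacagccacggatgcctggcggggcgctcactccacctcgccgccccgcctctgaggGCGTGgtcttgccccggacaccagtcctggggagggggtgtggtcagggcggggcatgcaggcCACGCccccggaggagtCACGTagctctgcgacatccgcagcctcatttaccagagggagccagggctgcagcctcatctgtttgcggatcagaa
ALDOA: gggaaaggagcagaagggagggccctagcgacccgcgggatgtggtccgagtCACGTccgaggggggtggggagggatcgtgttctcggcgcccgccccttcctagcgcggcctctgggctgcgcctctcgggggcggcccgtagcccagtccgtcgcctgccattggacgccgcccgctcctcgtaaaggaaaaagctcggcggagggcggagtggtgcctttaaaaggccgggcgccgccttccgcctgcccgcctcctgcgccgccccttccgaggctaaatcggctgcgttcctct
PFKFB4: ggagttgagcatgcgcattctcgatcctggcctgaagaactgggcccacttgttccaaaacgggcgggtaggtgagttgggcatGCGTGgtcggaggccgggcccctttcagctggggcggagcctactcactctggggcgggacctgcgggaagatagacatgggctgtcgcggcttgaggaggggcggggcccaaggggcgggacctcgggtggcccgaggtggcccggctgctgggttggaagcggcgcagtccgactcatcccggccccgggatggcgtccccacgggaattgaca
PFKFB3: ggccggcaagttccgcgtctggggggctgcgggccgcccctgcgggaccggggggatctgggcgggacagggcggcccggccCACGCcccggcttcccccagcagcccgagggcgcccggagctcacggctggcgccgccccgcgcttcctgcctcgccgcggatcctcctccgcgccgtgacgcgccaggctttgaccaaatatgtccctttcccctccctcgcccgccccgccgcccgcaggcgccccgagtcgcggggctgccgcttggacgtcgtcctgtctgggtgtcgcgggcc
ALDOC held 5 matches, which begin at -240, -239, -108, -45 and -28 from the start site of its window. ENO1 held 2 matches, and ENO2, ALDOA, PFKFB4 and PFKFB3 held 1 each, at -118, -198, -166 and -168. In their other windows ALDOA and PFKFB3 held at most 2. Of the 41 genes, 40 had a window in the table, and 63.2% of their 68 windows held a match, beside 60.9% of the 14817 windows of genes measured in HCT116. Windows with 3 or more matches made up 20.6% of those of the enzymes and 14.5% of those of measured genes. By gene, 34 of the 40 enzymes (85%) and 70.6% of 10121 measured genes held a match in at least 1 window, a measure that favours genes with several windows. A match describes letters only and says nothing of binding.

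In HCT116, most enzymes of glycolysis and the pyruvate dehydrogenase kinases PDK1 and PDK3 were higher with USP51, led by ENO2, ALDOC and PFKFB4, while most of the listed pentose phosphate enzymes were slightly lower. Differences are given as log2((TPM with USP51 + 1) / (TPM in NC + 1)), which understates those of genes with low values, over genes at 1 TPM or more in at least 1 of the 2 groups. FBP1, at 0.223 TPM with USP51 and 0.0900 TPM in NC, did not reach that level in HCT116. Of the 40 enzymes measured, 31 lay above NC and 9 below, beside 60.8% and 39.2% of all 12393 measured genes. With TMM-scaled CPM (counts scaled to the library total) in place of TPM, 29 lay above NC, beside 47.7% of all genes. By at least 1.2-fold 12 were higher, beside 12.1% of all genes, and by at least 1.5-fold 6 were higher, beside 1.96%. PGLS was the enzyme at least 1.2-fold lower, a size that 2.16% of all genes reached, and none was at least 1.5-fold lower, beside 0.145%. The median log2 ratio of the 40 was 0.10, against 0.04 over all genes. These are sizes and not tests.

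**Figure D1:**
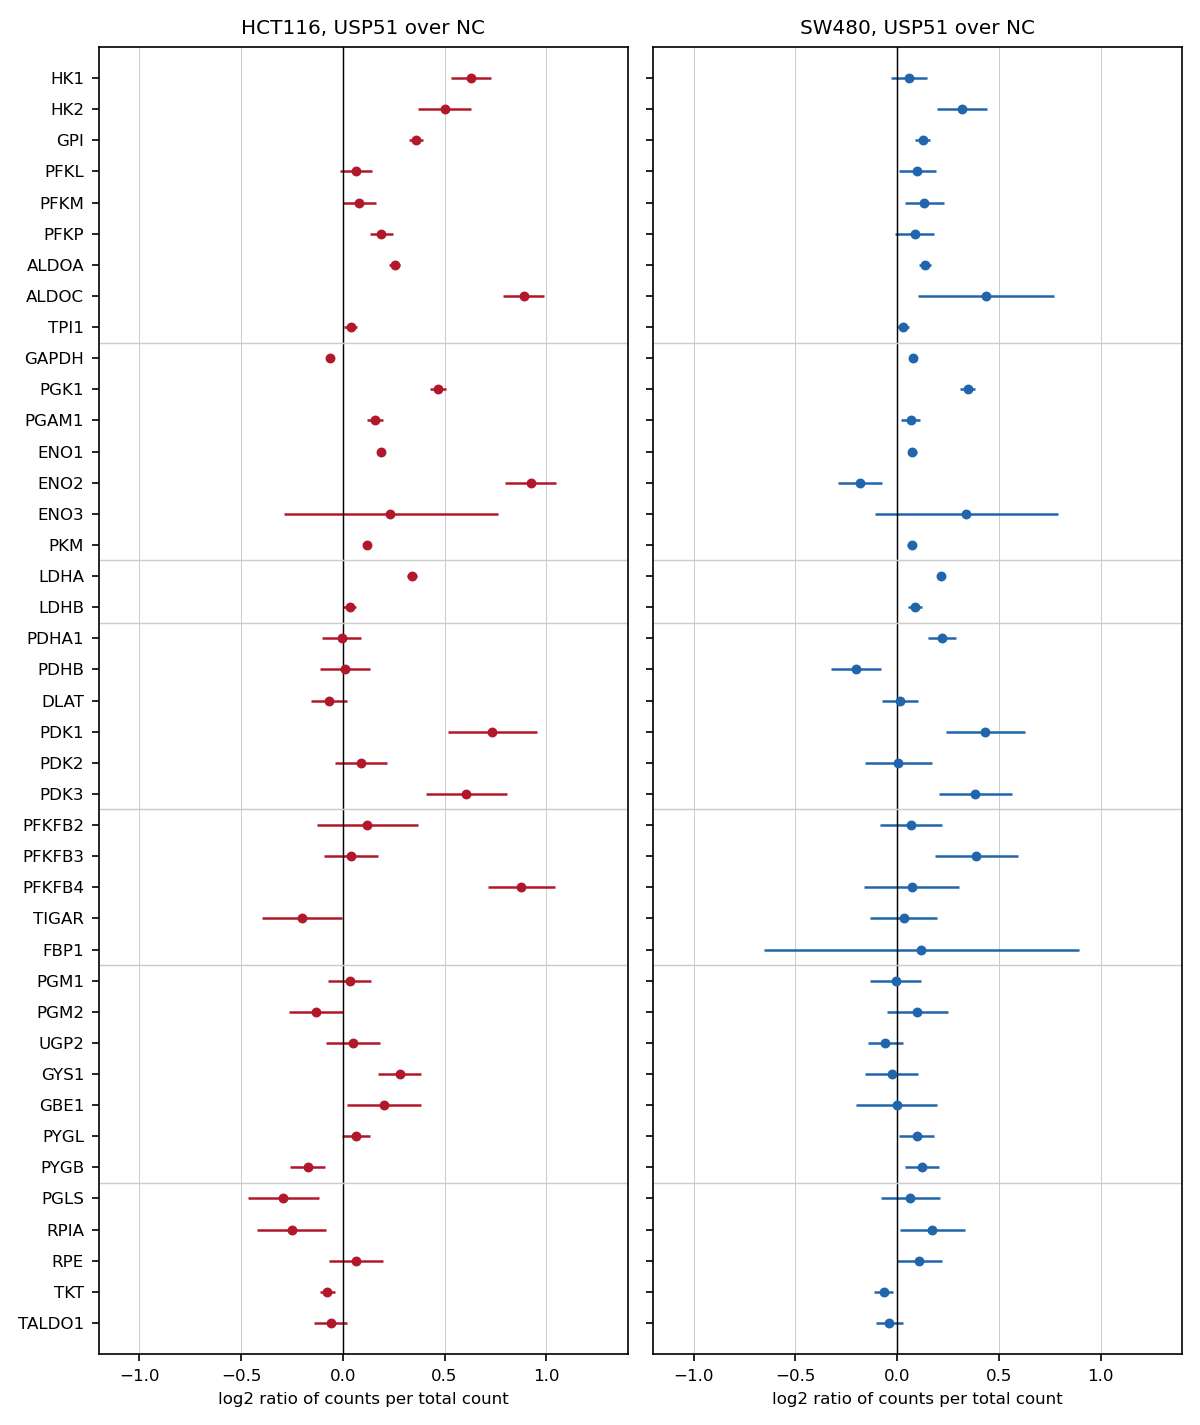
Ratio of counts per total count, USP51 over NC, in HCT116 (left) and SW480 (right) for each enzyme, on a log2 axis, with 95% exact intervals that cover counting error only. Grey lines separate the roles, and FBP1 is not shown in HCT116, where it was below 1 TPM. ENO2, ALDOC and PFKFB4 stand farthest right in HCT116, with count ratios of 1.90, 1.85 and 1.84, and ENO2 lies left of 0 in SW480.

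The first steps of glycolysis trap and split glucose. In brackets from here on stands the ratio of counts per total count with its 95% exact Clopper-Pearson interval, computed on the rounded mean counts and covering counting error alone. Each mean of 3 libraries was taken as 1 count, so the intervals are wider than the counting error of the mean itself. The aldolase ALDOC (chromosome 17, 28573120 to 28576895), best known from brain, was at 165.6 TPM in HCT116 with USP51 and 87.5 TPM in NC (1.85, 1.73 to 1.99). ALDOA, the main aldolase of most cells, was at 1870 TPM with USP51 and 1535 TPM in NC (1.19, 1.17 to 1.22). Of the 2 aldolases the rarer one thus differed more, and its share of aldolase TPM was 8.13% with USP51 and 5.39% in NC.

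Hexokinase, which phosphorylates glucose as it enters, was higher in both its forms. HK1 (chromosome 10, 69270000 to 69401882) was at 65.5 TPM with USP51 and 41.4 TPM in NC (1.55, 1.45 to 1.65). HK2, the form most often raised in tumours, was at 21.7 TPM with USP51 and 15.0 TPM in NC (1.41, 1.29 to 1.55). The ratio between the forms stayed similar, with HK1 at 75.1% of hexokinase TPM with USP51 and 73.4% in NC. GPI, which turns glucose 6-phosphate into fructose 6-phosphate, was at 353.3 TPM with USP51 and 269.9 TPM in NC (1.28, 1.25 to 1.316). The phosphofructokinases, which commit sugar to glycolysis, differed less. PFKP was at 226.5 TPM with USP51 and 194.9 TPM in NC (1.14, 1.10 to 1.18), PFKL at 99.0 TPM with USP51 and 92.8 TPM in NC, and PFKM at 86.1 TPM with USP51 and 79.7 TPM in NC. TPI1, which interconverts the 2 triose phosphates, had a log2 ratio of 0.07. All 9 enzymes of this upper part lay above NC in HCT116, 5 of them by at least 1.2-fold, beside 60.8% and 12.1% of all genes. ALDOA was among the 5 on TPM, but its log2 ratio was 0.23 to 0.26 in CPM and FPKM, just under 1.2-fold. The median log2 ratio of the 9 on TPM was 0.28.

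In the lower part, which yields ATP and pyruvate, 6 of 7 enzymes lay above NC, beside 60.8% of all genes. By at least 1.2-fold 2 were higher, beside 12.1%. ENO2 (chromosome 12, 6914580 to 6923697), the enolase first described in neurons, was at 71.2 TPM with USP51 and 36.8 TPM in NC (1.90, 1.74 to 2.07). The common enolase ENO1 was at 2948 TPM with USP51 and 2538 TPM in NC (1.14, 1.12 to 1.15), and ENO2 made up 2.35% of enolase TPM with USP51 and 1.43% in NC. The muscle form ENO3 was at 5.68 TPM with USP51 and 4.75 TPM in NC, on few counts (1.18, 0.818 to 1.70). PGK1, which makes the first ATP of this part, was at 259.9 TPM with USP51 and 184.2 TPM in NC (1.38, 1.35 to 1.42), and it shares exon positions with ATP7A on the same strand. PGAM1, a phosphoglycerate mutase, and PKM, the pyruvate kinase, had log2 ratios of 0.19 and 0.15. GAPDH, at 11319 TPM with USP51 and 11601 TPM in NC, was the enzyme below NC in this part (0.957, 0.9497 to 0.965). GAPDH was the most abundant RNA of the list in each group, and without it the other 40 enzymes summed to 15215 TPM with USP51 and 13364 TPM in NC.

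LDHA, the lactate dehydrogenase subunit that favours making lactate, was at 1490 TPM with USP51 and 1154 TPM in NC (1.27, 1.24 to 1.29). LDHB, whose subunit favours using it, was at 1643 TPM with USP51 and 1575 TPM in NC (1.02, 1.002 to 1.05). LDHA made up 47.6% of their TPM with USP51 and 42.3% in NC, so LDHB was the more abundant RNA in both HCT116 groups.

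At the entry to the mitochondrion, PDK1 and PDK3 had larger ratios than PDK2 and the subunits of the complex. PDK1 (chromosome 2, 172555373 to 172724312) was at 11.3 TPM with USP51 and 6.86 TPM in NC (1.66, 1.43 to 1.94). The curated RefSeq transcript of PDK1 held 5.97% of its TPM with USP51 and 5.98% in NC. Predicted transcripts held the rest, so the PDK1 level rests mostly on them. PDK3 was at 8.71 TPM with USP51 and 5.45 TPM in NC (1.52, 1.33 to 1.75), just past 1.5-fold on the log2(TPM + 1) scale. PDK2, the most abundant of the 3, was at 64.4 TPM with USP51 and 60.3 TPM in NC (1.06, 0.974 to 1.16). The subunit genes they act on and beside, PDHA1, PDHB and DLAT, had log2 ratios of 0.03, 0.04 and -0.04, and the counting interval of each included 1.

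Of the genes that set fructose 2,6-bisphosphate, PFKFB4 (chromosome 3, 48517684 to 48563136) was at 25.7 TPM with USP51 and 13.7 TPM in NC (1.84, 1.64 to 2.06). Its relative PFKFB3, in which kinase activity far outweighs phosphatase activity, was at 24.8 TPM with USP51 and 23.7 TPM in NC (1.03, 0.939 to 1.13). PFKFB4 made up 46.2% of PFKFB TPM with USP51 and 32.5% in NC. PFKFB2 was at 5.14 TPM with USP51 and 4.67 TPM in NC. TIGAR, a phosphatase that lowers the same signal, was at 4.94 TPM with USP51 and 5.57 TPM in NC (0.869, 0.758 to 0.996). PFKFB4 shares exon sequence with UCN2 on the same strand, and how such reads were counted is not given in the sources used here.

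Among glycogen enzymes 5 of 7 lay above NC in HCT116, near the 60.8% of all genes. Glycogen synthase GYS1 was at 47.4 TPM with USP51 and 38.2 TPM in NC (1.21, 1.13 to 1.31). The branching enzyme GBE1 was at 19.9 TPM with USP51 and 16.997 TPM in NC (1.15, 1.02 to 1.30). Of the enzymes that link glucose phosphates to glycogen, PGM1 was at 69.3 TPM with USP51 and 66.4 TPM in NC, PGM2 at 29.8 TPM with USP51 and 32.0 TPM in NC, and UGP2 at 49.6 TPM with USP51 and 47.1 TPM in NC. The phosphorylases, which release glucose from glycogen, lay on opposite sides, with PYGL at 140.1 TPM with USP51 and 131.3 TPM in NC and PYGB at 53.3 TPM with USP51 and 58.9 TPM in NC.

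Of the pentose phosphate enzymes 4 of 5 lay below NC in HCT116, beside 39.2% of all genes. PGLS, the enzyme of the oxidative branch, which hydrolyses 6-phosphogluconolactone, was at 64.7 TPM with USP51 and 78.0 TPM in NC (0.817, 0.723 to 0.922). RPIA, which isomerises ribose 5-phosphate, was at 33.2 TPM with USP51 and 38.8 TPM in NC (0.840, 0.746 to 0.945). Transketolase TKT was at 523.7 TPM with USP51 and 539.6 TPM in NC (0.948, 0.924 to 0.973). With curated transcripts alone the log2 ratio of TKT was 0.01 in place of -0.04, so TKT then lay above NC. TALDO1 had a log2 ratio of -0.03, with a counting interval that included 1 (0.959, 0.907 to 1.01), and RPE of 0.09.

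**Figure D2:**
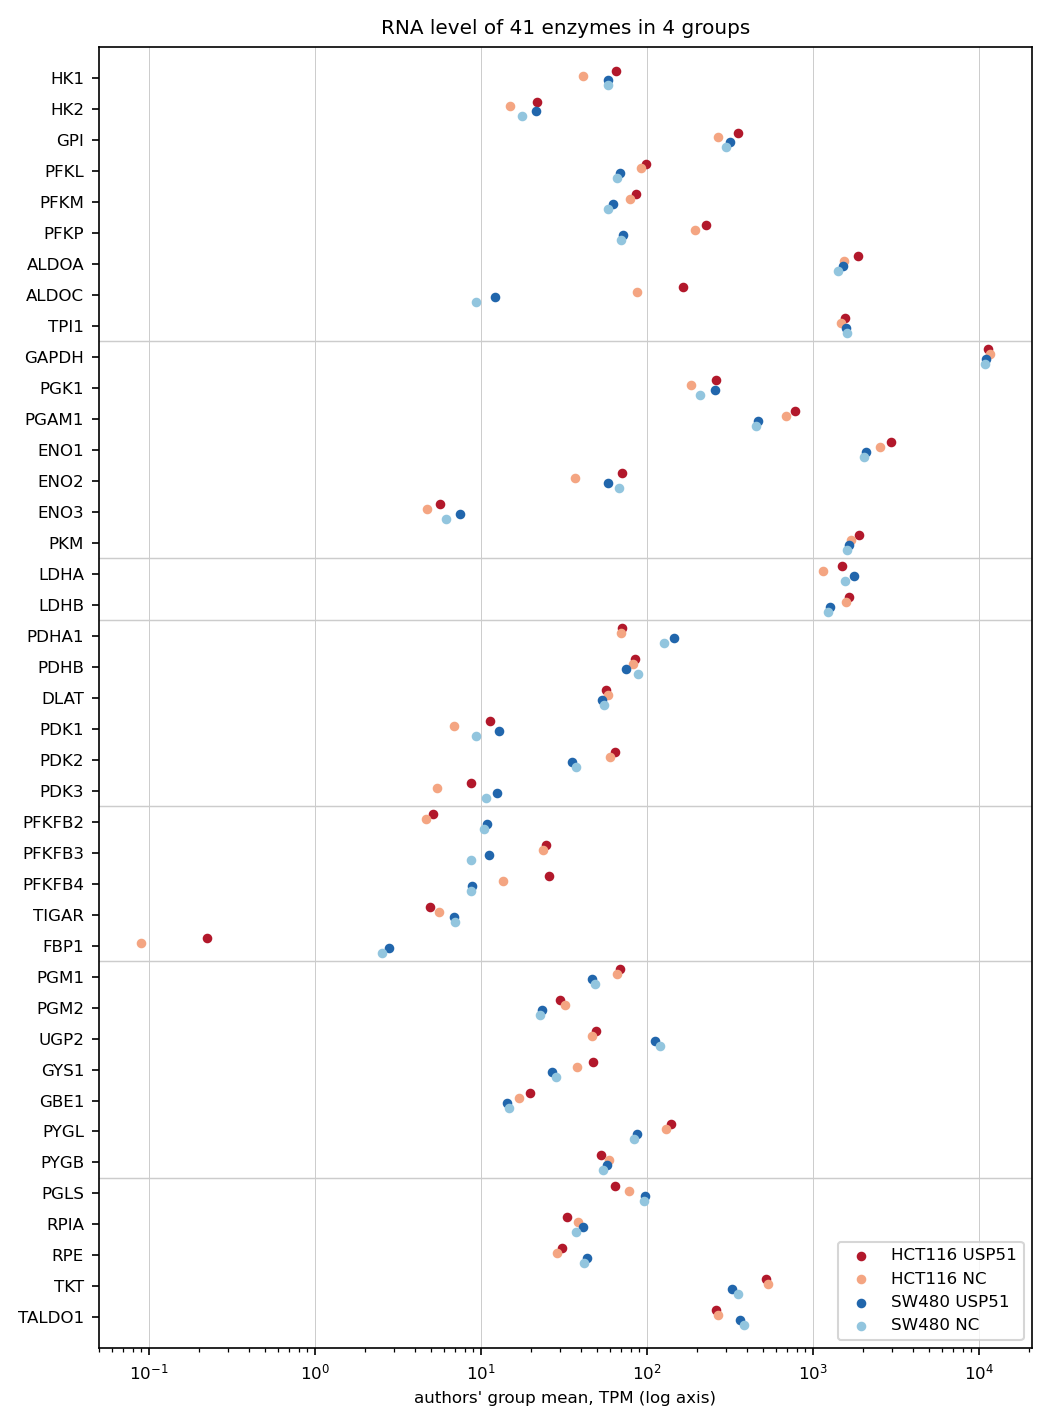
Authors' mean TPM of each enzyme in HCT116 with USP51, HCT116 NC, SW480 with USP51 and SW480 NC, on a log axis, with grey lines between roles. Levels span from 0.0900 TPM for FBP1 to 11601 TPM for GAPDH, both in HCT116 NC, and for most enzymes the dots of a line lie close together.

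In SW480 no enzyme reached 1.5-fold on the log2(TPM + 1) scale in either direction, beside 0.534% of all 12175 measured genes that were higher by that much and 0.879% that were lower. Of the 41 enzymes 29 lay above NC and 12 below, beside 38.8% and 61.1% of all genes, while with TMM-scaled CPM 35 lay above NC, beside 52.8% of all genes. On TPM the median log2 ratio was 0.05 against -0.04 over all genes. By at least 1.2-fold 4 were higher, beside 3.6% of all genes, and none was lower by as much, beside 10.1%. The order of the lines depended on the scaling: the median was 0.10 in HCT116 and 0.05 in SW480 on TPM, 0.06 in HCT116 and 0.09 in SW480 with TMM-scaled CPM, and 0.07 in HCT116 and 0.09 in SW480 on FPKM. In CPM the number of enzymes at least 1.2-fold higher was 7, beside 5.15% to 5.86% of all genes, depending on the factors. By role, 8 of 9 enzymes of upper glycolysis, 6 of 7 of lower glycolysis, 3 of 7 of glycogen and 3 of 5 of the pentose phosphate pathway lay above NC.

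The 4 were PDK1, ALDOC, PFKFB3 and PGK1. PDK1 was at 12.9 TPM with USP51 and 9.38 TPM in NC (1.35, 1.18 to 1.54), again mostly from predicted transcripts. Its curated transcript held 5.23% of PDK1 TPM with USP51 and 6.25% in NC. ALDOC was at 12.2 TPM with USP51 and 9.31 TPM in NC (1.35, 1.07 to 1.71), and PGK1 at 257.6 TPM with USP51 and 209.2 TPM in NC (1.27, 1.24 to 1.31). These 3 were also at least 1.2-fold higher in HCT116, a pattern that 0.944% of the 11332 genes measured in both lines showed. PFKFB3 was at 11.2 TPM with USP51 and 8.78 TPM in NC (1.31, 1.14 to 1.51), whereas PFKFB4 was at 8.92 TPM with USP51 and 8.74 TPM in NC (1.05, 0.894 to 1.23). HK2 came just under 1.2-fold on the log2(TPM + 1) scale but not in counts, at 21.4 TPM with USP51 and 17.8 TPM in NC (1.25, 1.15 to 1.36).

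Most other enzymes of SW480 stood close to NC. HK1 was at 58.7 TPM with USP51 and 58.2 TPM in NC (1.04, 0.979 to 1.11). LDHA was at 1763 TPM with USP51 and 1573 TPM in NC (1.16, 1.14 to 1.18), and GPI at 315.6 TPM with USP51 and 298.3 TPM in NC (1.09, 1.06 to 1.12). ALDOA was at 1515 TPM with USP51 and 1422 TPM in NC, PFKP at 71.9 TPM with USP51 and 69.5 TPM in NC, and GYS1 at 27.1 TPM with USP51 and 28.5 TPM in NC. The lowest log2 ratios were those of PDHB, the beta subunit of pyruvate dehydrogenase, ENO2 and TKT. PDHB was at 75.03 TPM with USP51 and 88.9 TPM in NC (0.870, 0.799 to 0.948). ENO2 was at 58.0 TPM with USP51 and 67.9 TPM in NC (0.882, 0.817 to 0.951), and TKT at 327.7 TPM with USP51 and 354.9 TPM in NC (0.955, 0.925 to 0.985). TPI1 lay below NC in TPM, with a log2 ratio of -0.02, and above it in counts (1.02, 0.998 to 1.04). PDHA1, the alpha subunit, lay above NC at 145.3 TPM with USP51 and 126.8 TPM in NC (1.17, 1.11 to 1.22), so the 2 parts of the same enzyme lay on opposite sides.

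Among the remaining enzymes of SW480, PDK3 and ENO3 had the highest count ratios. PFKL was at 68.6 TPM with USP51 and 66.1 TPM in NC, and PFKM at 62.3 TPM with USP51 and 58.5 TPM in NC. ENO1 was at 2089 TPM with USP51 and 2043 TPM in NC (1.05, 1.04 to 1.07), ENO3 at 7.52 TPM with USP51 and 6.15 TPM in NC (1.27, 0.928 to 1.73), and LDHB at 1274 TPM with USP51 and 1236 TPM in NC. PDK3 was at 12.5 TPM with USP51 and 10.8 TPM in NC (1.30, 1.15 to 1.48), and PDK2 at 35.5 TPM with USP51 and 37.5 TPM in NC. PDK3 was past 1.2-fold in CPM, with a log2 ratio of 0.37 to 0.39 in place of 0.20, and PDK2 had a counting interval that included 1 in both. PGM1 was at 47.0 TPM with USP51 and 48.7 TPM in NC, PGM2 at 23.5 TPM with USP51 and 22.7 TPM in NC, and UGP2 at 112.1 TPM with USP51 and 120.3 TPM in NC. PYGL was at 86.8 TPM with USP51 and 83.7 TPM in NC, and PYGB at 57.6 TPM with USP51 and 54.5 TPM in NC (1.09, 1.03 to 1.16). PFKFB2 was at 10.9 TPM with USP51 and 10.4 TPM in NC, TIGAR at 6.90 TPM with USP51 and 6.97 TPM in NC, and FBP1 at 2.79 TPM with USP51 and 2.56 TPM in NC. With curated transcripts alone the log2 ratio of FBP1 was -1.01 in place of 0.09. PGLS was at 97.8 TPM with USP51 and 96.3 TPM in NC (1.05, 0.945 to 1.16), and RPIA at 41.2 TPM with USP51 and 37.6 TPM in NC (1.13, 1.01 to 1.26). The pentose phosphate enzymes that were lowest in HCT116 were therefore not below NC in SW480. GBE1, RPE, PGAM1, PKM, DLAT and TALDO1 had log2 ratios of -0.05, 0.05, 0.02, 0.03, -0.03 and -0.08.

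**Figure D3:**
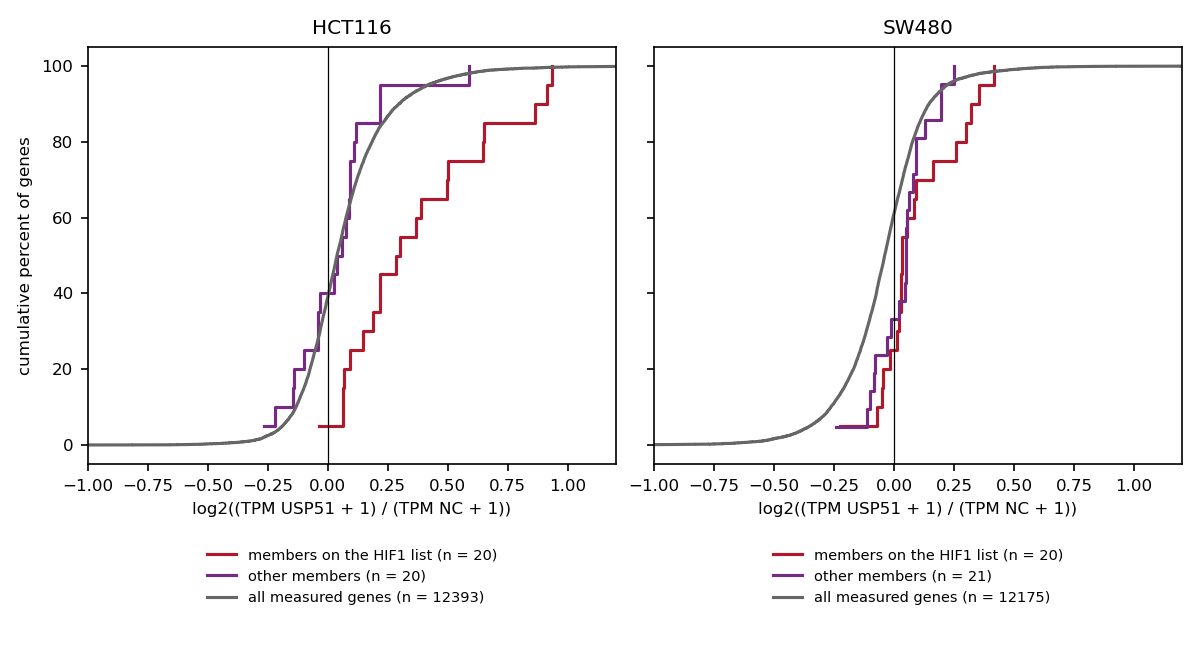
Cumulative share of genes by log2((TPM USP51 + 1) / (TPM NC + 1)) in HCT116 (left) and SW480 (right), for the enzymes on a list of HIF1 targets, the other enzymes and all measured genes. The list was drawn up with earlier results of these data known, and its separation was not tested. In HCT116 the curve of the HIF1 list lies to the right, with a median of 0.29 against 0.05 for the other enzymes and 0.04 for all genes. In SW480 the medians were 0.03, 0.05 and -0.04.

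The enzymes were also split by a list of 20 that textbooks describe as HIF1 targets, a list drawn up with earlier results of these data known. In HCT116 19 of the 20 lay above NC, all but GAPDH, and 11 of them by at least 1.2-fold, with a median log2 ratio of 0.29, beside 60.8% and 12.1% of all genes. Of the 20 other enzymes measured there 12 lay above NC and 1, PDK3, by at least 1.2-fold, with a median of 0.05. In SW480 15 of the 20 listed enzymes lay above NC with a median of 0.03, and 14 of the 21 others with a median of 0.05, beside 38.8% of all genes. By at least 1.2-fold 4 of the 20 and 0 of the 21 were higher there, beside 3.6% of all genes. The list describes these means and was not tested against other genes.

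The counts were also read gene by gene for the precision of the count ratio. In HCT116 the counting interval lay above 1 for 19 of 40 enzymes, beside 17.1% of all genes, and below 1 for 6, beside 11.7%. In SW480 it lay above 1 for 20 of 41, beside 13.6%, and below 1 for 3, beside 14.2%. It lay above 1 in both lines for 12 enzymes, beside 2.58% of all genes. Abundant genes have narrower intervals, and among genes at 10 TPM or more in a group the interval lay above 1 for 16.6% in HCT116 and 16.4% in SW480. Many of the enzymes were far above 10 TPM, so those genes do not match them in abundance. The share in both lines was not worked out for abundant genes. The ratio lay on opposite sides of 1 in the lines, with intervals that excluded 1 in each, for ENO2, GAPDH, PYGB and RPIA, beside 6.83% of all genes.

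The response of each enzyme was then set side by side in the lines, as the log2 ratio in HCT116 minus that in SW480, with no test. The difference was above 0 for 30 of 40 enzymes, beside 65% of all genes, and its median was 0.12, against 0.08 over all genes. It reached 1.5-fold for ENO2 (1.16), PFKFB4 (0.84) and HK1 (0.64), beside 3.95% of all genes, and ALDOC (0.56) came just under. No enzyme differed by 1.5-fold the other way, beside 0.459% of all genes. The lowest values were those of RPIA (-0.35), PGLS (-0.29) and PFKFB3 (-0.26). With TMM scaling of counts the median difference between the lines was 0.01 in place of 0.12.

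**Figure D4:**
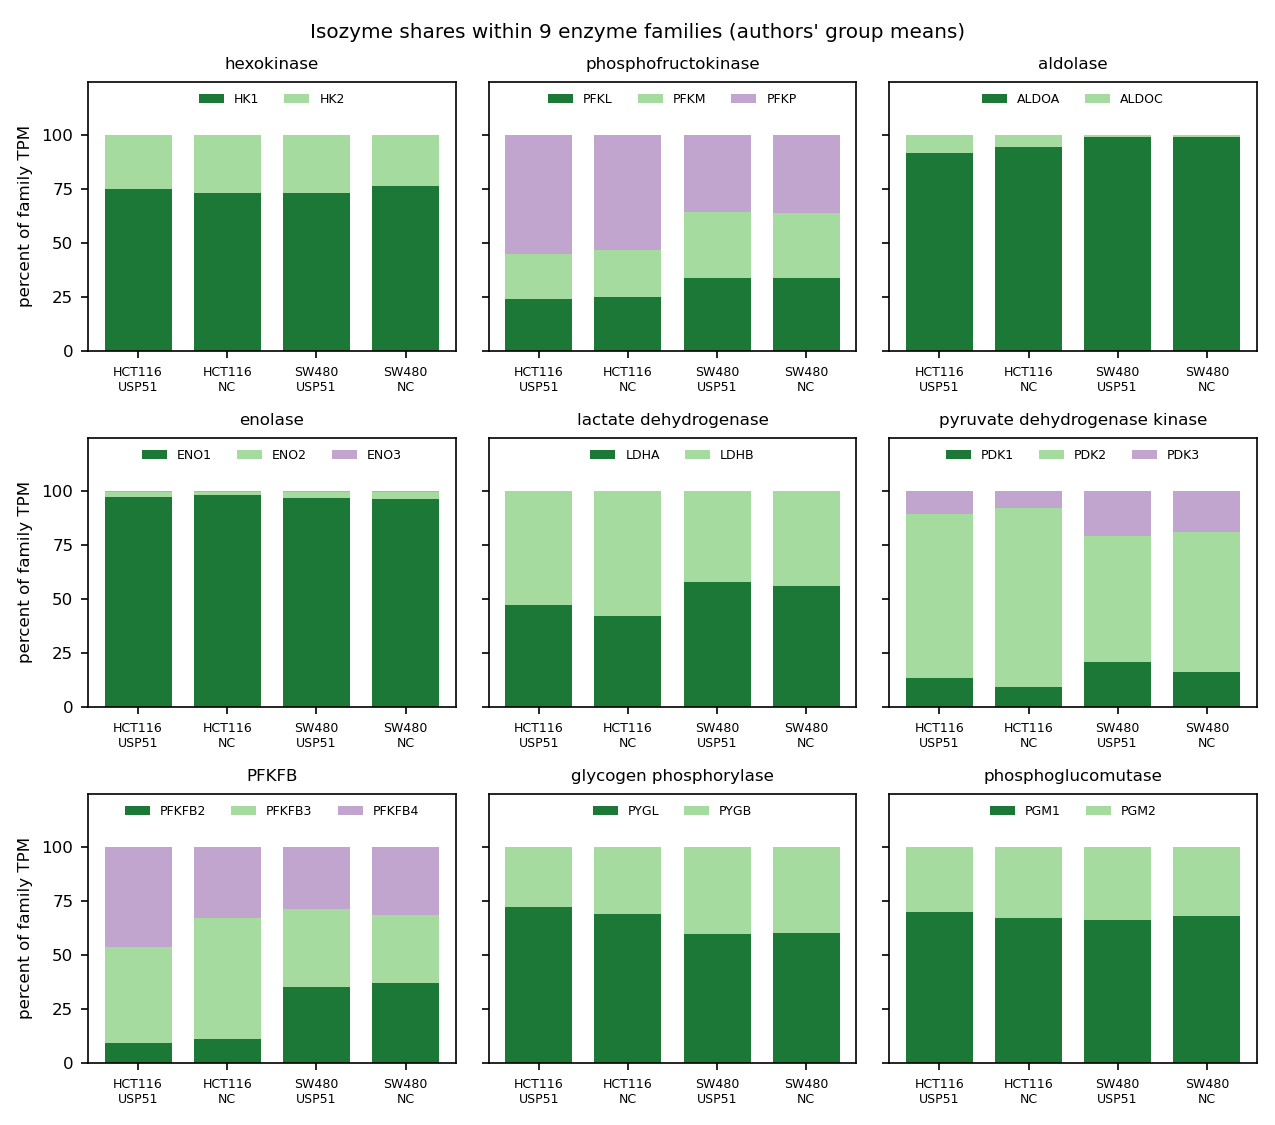
Share of each isozyme in the summed TPM of its family, as stacked bars from 0 to 100%, for 9 families in the 4 groups. PFKP holds 55.0% and 53.1% of phosphofructokinase TPM in the HCT116 groups and 35.5% and 35.8% in the SW480 groups, and PFKFB4 has its largest share, 46.2%, in HCT116 with USP51.

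The isozyme make-up of several families differed between the lines. Between the NC groups 3 of 41 enzymes were at least 2-fold higher in HCT116 than in SW480, beside 14.7% of 13033 genes, and 3 were at least 2-fold lower, beside 13.4%. ALDOC was at 87.5 TPM in HCT116 NC and 9.31 TPM in SW480 NC (9.53, 7.95 to 11.5). PFKP, the platelet-type phosphofructokinase, was at 194.9 TPM in HCT116 NC and 69.5 TPM in SW480 NC (2.78, 2.63 to 2.94), and made up 53.1% of phosphofructokinase TPM in HCT116 NC and 35.8% in SW480 NC. PFKFB3 was at 23.7 TPM in HCT116 NC and 8.78 TPM in SW480 NC (2.64, 2.34 to 2.99). On the other side, UGP2, which makes UDP-glucose, was at 47.1 TPM in HCT116 NC and 120.3 TPM in SW480 NC (0.387, 0.358 to 0.418). PFKFB2 was at 4.67 TPM in HCT116 NC and 10.4 TPM in SW480 NC (0.375, 0.324 to 0.433). The gluconeogenic enzyme FBP1 was at 0.0900 TPM in HCT116 NC and 2.56 TPM in SW480 NC, means of 1 and 29.3 counts (0.0341, 0.000834 to 0.205). LDHA made up 42.3% of lactate dehydrogenase TPM in HCT116 NC and 56.0% in SW480 NC, so that LDHB led in HCT116 and LDHA in SW480.

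The table splits genes into RefSeq transcripts, and the 41 genes had 226 of them. Pyruvate kinase PKM is spliced into M1 and M2 forms with alternative exons, and M2 is the usual form of tumours and growing cells. The main M2 transcript, NM_002654, was at 1708 TPM in HCT116 with USP51 and 1569 TPM in NC (1.07, 1.05 to 1.08). The M1 transcript NM_182471 was at 155.5 TPM with USP51 and 113.8 TPM in NC (1.34, 1.27 to 1.41), or 8.21% of PKM TPM with USP51 and 6.65% in NC. In SW480 NM_182471 was at 31.3 TPM with USP51 and 37.0 TPM in NC (0.872, 0.786 to 0.967), or 1.91% of PKM TPM with USP51 and 2.29% in NC. M2 was thus the main form in all 4 groups, and the M1 share was above NC in HCT116 and below it in SW480. How reads were divided among transcripts of a gene is not given in the sources used here.

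Other genes of the same pathways came from a list of 51, of which 49 were in the table. In HCT116 26 of them were measured, 12 lay above NC (46.2%, beside 60.8% of all genes), and the median log2 ratio was -0.02. H6PD, an enzyme of the endoplasmic reticulum that makes NADPH there, was at 5.31 TPM with USP51 and 4.09 TPM in NC (1.26, 1.10 to 1.45). LDHD, which oxidises D-lactate, was at 2.67 TPM with USP51 and 2.06 TPM in NC (1.316, 0.844 to 2.07), and these 2 were the genes at least 1.2-fold higher (7.69%, beside 12.1% of all genes). In SW480 10 of 27 lay above NC (37.0%, beside 38.8% of all genes), with a median of -0.03, and 1 was at least 1.2-fold higher and 1 lower. PDP2, a phosphatase that reactivates pyruvate dehydrogenase, was at 3.32 TPM with USP51 and 2.58 TPM in NC (1.325, 1.09 to 1.61). GYG1, the protein primer of glycogen, was at 39.0 TPM with USP51 and 52.5 TPM in NC (0.762, 0.690 to 0.841). PGD, an enzyme of the oxidative pentose phosphate pathway, had a log2 ratio of -0.02 in HCT116 and -0.07 in SW480.

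Some values are uncertain because genes share sequence. In GENCODE 29, 13 of the 41 enzymes have named pseudogenes, among them 62 of GAPDH and 13 of PGAM1, and 21 overlap exons of a gene on the opposite strand. Whether counting used strand is not given in the sources used here.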

How the data were processed

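Libraries for the BGISEQ platform were made from TRIzol-extracted RNA, per the labels' protocols. TopHat, DESeq 1.32.0 and hg38 are named in the submitters' processing notes, with no role given. The deposited table holds, per the file headers, the authors' group means of read counts (estimated counts, not whole), of TPM and of FPKM for 84345 RefSeq transcripts. The 36 single-library columns match no label and were not used, so the planned edgeR tests were replaced by sizes and counting intervals.

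Transcripts were summed per NCBI gene and named through the RefSeq table of GRCh38.p14. Log2 ratios used TPM with a pseudocount of 1 and genes at 1 TPM or more in at least 1 of 2 groups. Count ratios carry 95% exact Clopper-Pearson intervals on means rounded to whole numbers, with each mean taken as 1 count. Reads copied by PCR are not separate molecules, so neither the intervals nor the floor of 3 counts cover more than counting error. TMM, RLE and upper-quartile factors came from edgeR 4.0.16 (R 4.3.3), and the rest from Python 3.11.15 with SciPy 1.17.1.

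Enzymes, lists and size rules were chosen with earlier results of these data known. Values are given for enzymes at least 1.2-fold from NC in either line, the 3 highest and lowest per line, those 2-fold apart between NC groups and the isozymes of each family, and other enzymes were added for their roles. Transcripts are named for PKM and HK1 and where a share moved by 10 percentage points.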

Additional observations from a re-analysis of the deposited data

Results flagged for a closer look

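For 4 enzymes the ratio of USP51 to NC lay on opposite sides of 1 in the 2 lines, with a counting interval that excluded 1 in each, as it did for 6.83% of the genes measured in both lines. The difference between the lines was not tested. ENO2 was higher in HCT116 and lower in SW480, a difference of 1.16 between the log2 ratios (HCT116 minus SW480). GAPDH differed by -0.070, PYGB by -0.22 and RPIA by -0.35, each lower with USP51 in HCT116 and higher in SW480. The intervals cover counting error only.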

How the results depend on the processing

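No paired analysis was possible because the authors' means carry no replicate numbers, and for the same reason leaving out a replicate, edgeR tests and DESeq2 were not run. The main values were set beside TMM, RLE and upper-quartile factors on CPM, FPKM, a pseudocount of 0.1, no filter, 20 mean counts and curated transcripts, and beside CPM without factors and a filter of 10 TPM, both chosen after seeing the data. In HCT116 the number of enzymes at least 1.2-fold higher was 10 to 12 and at least 1.5-fold higher 5 to 6, and the median was 0.06 to 0.11. The number at least 1.2-fold lower was 2 in place of 1 with TMM and with RLE factors. In SW480 7 enzymes in place of 4 were at least 1.2-fold higher with TMM, RLE or upper-quartile factors or CPM without factors, where 5.15% to 5.86% of all genes were. The number was 6 with FPKM, beside 4.36% of all genes, and 6 with a pseudocount of 0.1, beside 4.99%. With curated transcripts it was 5, beside 4.58%. None reached 1.5-fold higher under any of these settings, and the SW480 median was 0.03 to 0.09. With curated transcripts 1 enzyme in place of 0 was at least 1.2-fold lower, FBP1 (log2 ratio -1.01 in place of 0.09). PDK1 fell below 1 TPM in both lines with curated transcripts, so it has no value under that setting. The ALDOC share of aldolase TPM in HCT116 with USP51 was 6.35% in place of 8.13% with curated transcripts. The median difference between the lines was 0.01 to 0.12, and in HCT116 the log2 ratios of ENO2, ALDOC and PFKFB4 were 0.88 to 0.95, 0.86 to 0.95 and 0.81 to 0.91. Of 422 values of named enzymes under these settings 412 kept the sign of the main value, and no enzyme at least 1.2-fold from NC in the main values changed sign. Shares within a family were recomputed with FPKM and curated transcripts only. Counting intervals were widest for enzymes with few counts, such as FBP1 and ENO3, and included 1 for many others.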

Other observations

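Transcript shares moved by at least 10 percentage points between USP51 and NC for 3 of the 41 genes, all in SW480. PFKFB3 has many splice forms, and NM_001145443 made up 88.1% of its TPM in SW480 with USP51 and 77.4% in NC, while NM_004566 made up 2.89% with USP51 and 13.4% in NC. Taken as counts, NM_001145443 was higher with USP51 (1.499, 1.29 to 1.75) and NM_004566 lower (0.289, 0.151 to 0.522). For ENO3, NM_001374524 made up 52.3% with USP51 and 35.2% in NC, on means of 51.4 and 27.0 counts. For FBP1 the curated transcript NM_000507 was at 0 counts with USP51 and 12.8 counts in NC, and the predicted transcript XM_006717005 at 31.7 counts with USP51 and 16.6 counts in NC. HK1 was nearly all NM_000188 in every group, from 97.1% in SW480 NC to 99.6% in HCT116 NC.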
